A study of Rattus norvegicus with 21 samples.

Results

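The comparison set 5 single GABAergic neurons from purified hippocampal cultures that had received oligodendrocyte conditioned medium (OCM) against 6 single GABAergic neurons that had grown together with glia. The 11 cells were chosen by their labels alone, from the 21 patched neurons of the series, and every gene with a symbol was compared. All 11 neurons came from hippocampi of embryonic day 18 Wistar rats carrying a vesicular GABA transporter (VGAT)-Venus transgene, which marks inhibitory neurons with a fluorescent protein, and all were taken after 17 days in culture. Purified cultures were made with antimitotic agents (FdU and U, 5 µM), given 24 h after dissection and removed after 36 h. Those used here then received OCM on day 3 in vitro. The medium had been collected from oligodendrocyte cultures of Wistar cortices taken at postnatal day 2 and kept for 7 to 15 days before a night of shaking. OCM, the antimitotic treatment and the presence of living glia therefore differ together between the groups. Their parts in any difference below cannot be told apart from these 2 groups. Neither an animal nor a culture is named for any cell in the labels, and each group therefore counts as 1 sample. No test between the groups was made, and every SD or range describes the spread between cells.

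Cholesterol is built from acetyl-CoA through mevalonate, isoprenoid units, squalene and lanosterol, by enzymes whose genes share control by the sterol-sensing factor SREBP2. Neurons in the mature brain are known to take much of their cholesterol from glia as lipoprotein particles and to dispose of it through a neuronal hydroxylase encoded by Cyp46a1. Hippocampal interneurons release GABA onto receptors that are anchored beside adhesion molecules and scaffolds, and their classes are told apart by peptides such as neuropeptide Y and somatostatin. Egr1 and its relatives are immediate early genes, which neurons switch on within minutes of synaptic activity.

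Each cell was measured by amplifying the polyadenylated RNA aspirated into the patch electrode. The 11 libraries held 5587208 to 25160911 recovered reads. With every library thinned to the lowest of these totals, the OCM-treated cells had 3914 to 6072 genes above 0 and the glia-cultured cells 3685 to 8491. The sample titles of the glia-cultured cells carry different letters, whose meaning the labels do not give: 3 cells titled P had 5948 to 8491 such genes, and 3 titled ech or S had 3685 to 4610. All 5 OCM-treated titles begin with S. Levels are therefore also given against the P-titled and against the ech- or S-titled cells, and the difference in genes above 0 moves with that split. All 11 cells had reads for the GABA-synthesizing enzymes Gad1 and Gad2 and for the vesicular transporter Slc32a1. Slc17a7, the vesicular glutamate transporter of hippocampal pyramidal cells, was at 0 in all 11.

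A level is a normalized count, that is, reads divided by the size factor of the cell. A log2 difference is the mean of log2(normalized count + 1) over the OCM-treated cells minus that over the glia-cultured cells, so that it understates the change of low genes and grows where one group is at 0. Of 6772 genes above 0 in at least 3 of the 11 cells, 744 (11%) were more than 4-fold higher in OCM-treated cells and 2059 (30.4%) more than 4-fold lower. The median log2 difference over these genes was -0.72, with 36.0% of genes higher. Against the P-titled cells the median was -1.50 and against the ech- or S-titled cells 0.05, so the excess of lower genes turned with the split. Without the glia-cultured cell with the most genes above 0 it was -0.32, and with all cells scaled to one total of reads -0.60. A stricter description asks that all 5 cells of one group lie beyond all 6 of the other. Only 12 genes (0.177%) were higher in OCM-treated cells by that rule, and 35 (0.517%) were lower. Leaving out 1 cell eases that rule, and the numbers then ran from 12 to 25 and from 48 to 70.

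Npy, Ackr3, Egr1 and Cyp51, the genes that mark the comparison here, were higher in OCM-treated cells, and each was at 0 in 2 to 5 of the glia-cultured cells. Npy encodes neuropeptide Y, a peptide co-released by a class of hippocampal interneurons, and lies at chr4:79557856-79565059 of rn6. Its normalized count was 101264, 7269.6, 34072, 54723 and 276125 in OCM-treated cells 1 to 5, the order kept throughout. In the glia-cultured cells it ran from 0 to 39192 with a median of 543. The log2 difference was 8.05, at 7.27 against the P-titled and 8.83 against the ech- or S-titled cells. The groups overlapped, since the glia-cultured cells holding 39192 and 13216 exceeded the lowest OCM-treated cell, and 2 glia-cultured cells had no Npy read. The 5 purified neurons without medium, which got the antimitotic agents and no OCM, held 0, 0, 3964, 0 and 185668.

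Ackr3 encodes an atypical chemokine receptor that binds and clears CXCL12, and lies at chr9:97355924-97367445. Its levels were 2483, 780.4, 2295, 0 and 1898 in the OCM-treated cells. Glia-cultured cells had 2 Ackr3 reads in all (95% exact Poisson interval 0.242 to 7.22), both in 1 cell at 1.07, against 10787 reads in the OCM-treated cells (10584 to 10992). Intervals of this kind cover counting error only, and amplified reads without molecular identifiers are not independent molecules. Thus 4 OCM-treated cells held the receptor at high counts and 1 held none. All 5 purified neurons without medium were also at 0. Neither the partner receptor gene Cxcr4 nor the ligand gene Cxcl12 had a read in any of the 11 cells.

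Egr1, an immediate early transcription factor at chr18:27657551-27661336, was at 1170.4, 111, 1456, 85.3 and 4240.2 in OCM-treated cells. Glia-cultured cells ranged from 0 to 1272 with a median of 0, with 4 cells at 0 and 1 P-titled cell at 1272. That P-titled cell stood above 3 OCM-treated cells, and without it the groups would not overlap. The log2 difference was 6.97 over all cells and 4.73 against the P-titled cells. The ratio of the group means was 6.63, and nearly all of the glia-cultured mean came from that same cell.

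Cyp51, the lanosterol demethylase of the cholesterol pathway at chr4:27175243-27194014, was the only gene of these 4 whose groups did not overlap. The OCM-treated cells held 1685, 1130.4, 7590.4, 2329 and 1429.9, and the glia-cultured cells 0 to 1011 with a median of 106. The nearest cells of the groups were at 1130.4 and 1011, a narrow gap. The mean was 2833 ± 2696 (SD over 5 cells) against 360.2 ± 483 (SD over 6 cells), a ratio of 7.87. Purified neurons without medium held 1206 to 8463, which is within or above the OCM-treated range in all 5 cells.

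**Figure D1:**
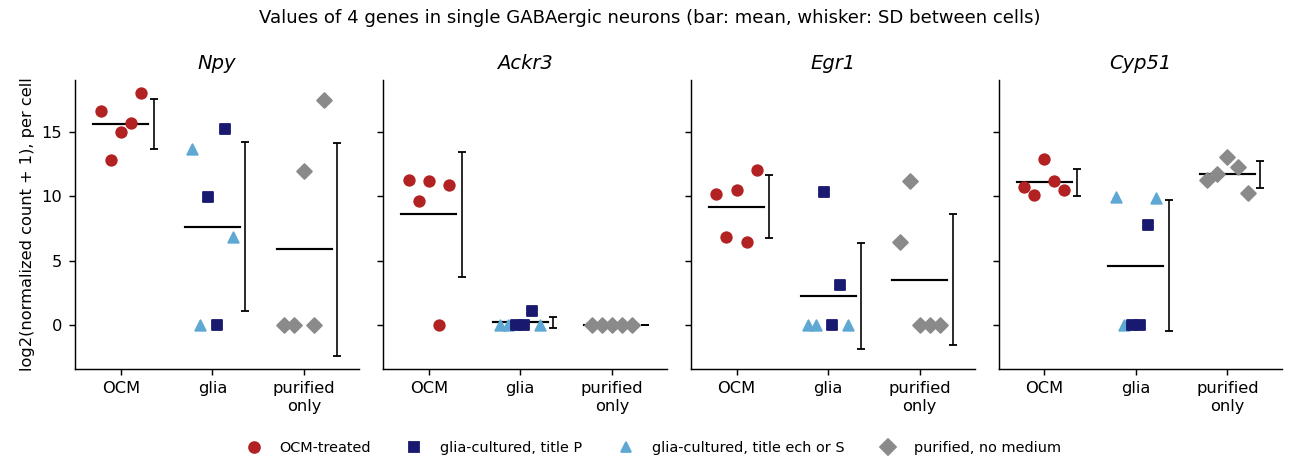
Each point is 1 neuron, the vertical axis is log2(normalized count + 1), bars are group means and whiskers the SD between cells; points at 0 overlie each other. Ackr3 had reads in 4 of 5 OCM-treated and 1 of 6 glia-cultured cells, and Cyp51 in 5 of 5 against 3 of 6, with all purified neurons without medium high for Cyp51 and at 0 for Ackr3.

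The OCM-treated cells held more RNA of most cholesterol synthesis genes, in the early, middle and late parts of the pathway. Of 18 measured genes out of 20 listed, 17 were higher and 13 were more than 4-fold higher, against 11% of all genes, and none was more than 4-fold lower. The median log2 difference was 2.80 against -0.72 over all genes. Its size depended on the reference cells: 0.98 against the P-titled and 4.64 against the ech- or S-titled cells. Taken over log2 ratios of group means, in which zeros weigh less, the list median was 1.35. The number of the 18 genes with reads was 12 to 17 in OCM-treated cells and 5 to 18 in glia-cultured cells. The mean log2 level over the list was 6.28 to 9.98 in OCM-treated cells and 2.94 to 8.36 in glia-cultured cells, so the groups overlapped. OCM-treated cell 4 was the low one. OCM-treated cell 1 lay level with the 2 highest glia-cultured cells and the other 3 lay above them. Those 2 glia-cultured cells, both titled P, were also the glia-cultured cells with the most genes above 0. In purified neurons without medium the same level was 6.19 to 8.17. Their summed normalized count over the list was not lower, with a median of 29554 beside 24300 in OCM-treated and 8159 in glia-cultured cells.

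The first steps, from acetyl-CoA to activated mevalonate, gave a median difference of 2.86 over 5 genes. Acat2, which joins acetyl groups, was at 969, 2996, 5049.7, 1552 and 4567 in OCM-treated cells and at 0 to 1897 with a median of 529.6 in glia-cultured cells. Mvd, which decarboxylates activated mevalonate, was present in all OCM-treated cells at 2009, 1875, 2824, 485 and 1009.6 and absent from 3 glia-cultured cells, whose range was 0 to 981 with a median of 188. Hmgcs1, a synthase on the way to mevalonate, had a difference of 1.21, and a P-titled cell held the highest value of all 11.

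Among the isoprenoid and squalene steps, Idi1 and Fdft1 stood out for their presence in every OCM-treated cell. Idi1, the isopentenyl diphosphate isomerase, held 1274, 1118, 3453, 519 and 2218 in OCM-treated cells and 0 to 1712 with a median of 254 in glia-cultured cells, of which 3 were at 0. Fdft1, squalene synthase, held 2068, 2034, 2966, 495 and 2236, with glia-cultured cells at 0 to 4032 with a median of 86.1. In both genes OCM-treated cell 4 was the lowest of its group, and glia-cultured cells lay above it. Sqle, the oxygenase after squalene, differed by only 0.21, and 1 OCM-treated cell was at 0.

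Among the 9 genes from lanosterol to cholesterol, 8 were higher. Nsdhl, a dehydrogenase in sterol demethylation and, with Cyp51, 1 of the 2 list genes whose groups did not overlap, held 2593, 3495, 3435, 2762 and 2094 in OCM-treated cells. Glia-cultured cells held 0 to 1858 with a median of 1116, and the ratio of means was 2.86. Tm7sf2, a sterol reductase, differed by 4.27. Msmo1 held 3021, 2360.5, 1872, 536 and 10624 against 0 to 4408 with a median of 1496, so that 2 glia-cultured cells exceeded 4 of the OCM-treated cells. Sc5d was the 1 list gene not higher, at -0.02. Mvk and Fdps were not analysed here.

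**Figure D2:**
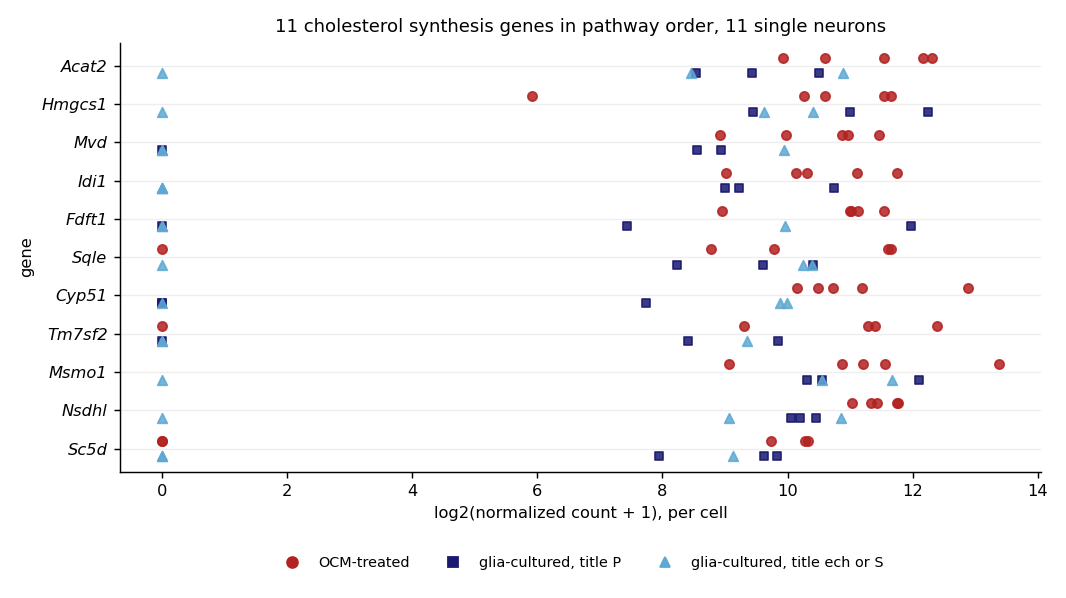
Each row is 1 of 11 described genes in pathway order, the horizontal axis is log2(normalized count + 1), red circles are OCM-treated cells and blue symbols glia-cultured cells by title. Mvd, Idi1 and Fdft1 have most light blue triangles at 0 and every red circle well above it, and Cyp51 and Nsdhl are the rows in which the colours separate.

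RefSeq promoter windows of GRCr8, 250 bases before to 50 bases after each gene's start, were found for 13 of the 18 genes. They were searched because the members were higher together in these cells. The letters TCACNCCAC, one form of the sterol regulatory element, were searched on both strands and occurred in 0 of the 13, and in 1.13% of 27457 windows of all genes. CCAAT, bound by the factor NF-Y, occurred on either strand in 10 of the 13 windows (76.9%), and in 37.7% of all windows. Nsdhl held 5 such matches and Mvd 2, while the Cyp51 window held none. The windows of Nsdhl (chrX:155817110-155817409, plus strand) and Mvd (chr19:67414925-67415224, minus strand) follow, 5′ to 3′, with CCAAT or its reverse complement ATTGG in capitals.
Nsdhl: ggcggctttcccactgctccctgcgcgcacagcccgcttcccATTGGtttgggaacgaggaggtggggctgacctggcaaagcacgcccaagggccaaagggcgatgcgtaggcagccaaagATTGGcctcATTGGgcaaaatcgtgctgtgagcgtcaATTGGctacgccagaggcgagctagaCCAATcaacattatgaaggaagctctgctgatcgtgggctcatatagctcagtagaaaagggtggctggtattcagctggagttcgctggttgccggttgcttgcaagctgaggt
Mvd: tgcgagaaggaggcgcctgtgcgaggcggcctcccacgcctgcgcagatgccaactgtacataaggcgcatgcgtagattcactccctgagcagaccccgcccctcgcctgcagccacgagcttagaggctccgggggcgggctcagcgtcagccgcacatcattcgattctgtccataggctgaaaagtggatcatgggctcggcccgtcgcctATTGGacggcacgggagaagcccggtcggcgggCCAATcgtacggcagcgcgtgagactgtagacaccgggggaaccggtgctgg
In Nsdhl the first bases of the matches lay 208, 128, 119, 91 and 65 bases before the start, and in Mvd 35 and 2 bases before it. A match is a description of letters and no evidence of binding, and the absence of the sterol letters says only that they are not in these windows.

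Genes that sense, import or remove cholesterol lay near all genes. Of 15 measured, 4 were higher and 11 lower, with 0 more than 4-fold higher, beside 11% of all genes, and 4 more than 4-fold lower, beside 30.4%. Their median was -0.78, near the -0.72 of all genes, and its sign turned with the title split, at -1.55 against the P-titled and 0.84 against the ech- or S-titled cells. Srebf2, which encodes SREBP2, differed by 0.01. Scap, its escort protein, was lower at 0, 30.5, 14.7, 0 and 319 against 0 to 2640.2 with a median of 783. Insig1, which retains that complex in the endoplasmic reticulum, differed by -0.97 with 0, 1819, 796, 157 and 2022 in OCM-treated cells. Vldlr, a lipoprotein and reelin receptor, held 0, 1379, 1498, 0 and 375 against 0 to 4422 with a median of 2109.

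Cyp46a1, the neuronal hydroxylase through which cholesterol leaves the brain, was lower in every OCM-treated cell than in any glia-cultured cell. Levels were 689, 1093, 1.22, 806 and 0 against 1914 to 9089.6 with a median of 3280.5. The mean was 7.62 times higher in glia-cultured cells. Purified neurons without medium held 1897, 2934, 1195, 0 and 1194, and 3 of these 5 lay between the groups.

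Of 9 measured fatty acid synthesis genes 7 were higher, with a median of 0.82, which was -0.03 against the P-titled and 2.05 against the ech- or S-titled cells. Idh1, which supplies cytosolic NADPH, held 1301, 1610.1, 849, 0 and 934 in OCM-treated cells and was above 0 in 1 glia-cultured cell, at 437. Acss2, which activates acetate, was at 0, 1166, 0, 879 and 2725 against 1 glia-cultured cell at 1262 and 5 at 0. Acly, which splits citrate to acetyl-CoA, had a difference of -2.55. The desaturase Scd2 was abundant in both groups and differed by 0.36.

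Among activity-regulated genes the early transcription factors were for the most part higher in OCM-treated cells, and the effectors were mixed. Of 15 measured genes out of 29 listed, 11 were higher and 5 were more than 4-fold higher, beside 11% of all genes. Their median of 0.92, which was 0.09 without glia-cultured cell 2 or 6 and 1.81 without OCM-treated cell 1, turned to -0.36 against the P-titled cells and was 3.11 against the others. With each group summarized by the median over its cells it was 0. Among the 8 early factors the median was 1.97, and 1.14 against the P-titled cells. Among the 7 effectors it was 0.12.

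Fos, the classical activity marker, was found in every OCM-treated cell at 574, 768, 1132, 4413 and 9682. It was also found in 5 of the 6 glia-cultured cells, up to 4286 with a median of 2149, so the groups overlapped. The log2 difference was 1.39. Egr4 held 137, 0, 695, 152 and 552 in OCM-treated cells and was above 0 in 2 glia-cultured cells. Nr4a3, an orphan nuclear receptor, was above 0 in 3 OCM-treated cells and in 1 glia-cultured cell. Npas4, Nr4a1, Atf3, Egr2, Egr3 and Ier2 were above 0 in at most 2 of the 11 cells and were not measured.

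Among the effectors, Gadd45g, a stress and differentiation gene, held 369, 1011, 1354, 609 and 1342 in OCM-treated cells against 0 to 692 with a median of 397. Vgf, a secreted neuropeptide precursor, was lower at 3929.7, 756, 983, 3388 and 6504 against 2684 to 8545 with a median of 5478, a difference of -1.20. Scg2, a granin of dense-core vesicles, was very abundant and differed by -0.30. Dusp6, a phosphatase of the ERK pathway, had no read in any OCM-treated cell and was at least 902-fold lower there. That bound sets the OCM-treated group at 3 reads in all, a chosen floor for counting error. The 95% exact Poisson interval for 0 reads reaches 3.69, which would give a smaller fold. The Dusp6 bound rests on glia-cultured cells at 1610.4 and 925, since 3 others were at 0. Bounds of this kind, here and below, do not allow for failed capture. A gene with no read in a whole group met the filter of 3 cells through the other group alone, so its direction followed from the filter.

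Windows of 11 of the 15 genes were found. TGACGTCA, the full cAMP response element, occurred in 3 (27.3%), namely Dusp1, Scg2 and Vgf, and in 1.91% of all windows. A CArG box, the serum response factor site, occurred in 1 of the 11 (9.09%), the Egr1 window, and in 1.64% of all. Both were searched on both strands. The Egr1 window (chr18:26736828-26737127, plus strand) is shown because Egr1 had the largest difference of the list. Its 2 CArG boxes, in capitals, begin 105 and 83 bases before the start.
Egr1: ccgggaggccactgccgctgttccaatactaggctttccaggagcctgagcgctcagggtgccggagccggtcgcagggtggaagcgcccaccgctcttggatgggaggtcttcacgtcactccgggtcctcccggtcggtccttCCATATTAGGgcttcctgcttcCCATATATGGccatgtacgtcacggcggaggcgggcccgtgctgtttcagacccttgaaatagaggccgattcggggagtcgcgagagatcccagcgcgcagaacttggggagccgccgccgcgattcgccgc
The 3 genes with the full cAMP element differed by 0.92 for Dusp1, -0.30 for Scg2 and -1.20 for Vgf, beside the list median of 0.92.

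Interneuron peptides and markers were higher in several OCM-treated cells. Of 11 measured genes 8 were higher, beside 36.0% of all genes, with a median of 1.12, and none separated the groups. Over log2 ratios of group means that median was 0.03, and with medians over cells 2.20. With the listed genes read in fewer than 3 cells included, the median was -0.30. Sst, which encodes somatostatin, held 325053, 966, 19012, 124726 and 234564 in OCM-treated cells and 49864, 1398, 3.73, 647, 21737 and 0 in glia-cultured cells 1 to 6. It was therefore abundant in OCM-treated cells 1, 3, 4 and 5 and in glia-cultured cells 1 and 5. Npy was highest in the same cells of each group, and its lowest OCM-treated value fell in cell 2, which also had the lowest Sst.

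Calb1, the calcium buffer calbindin, held 2583, 0, 1191, 1226 and 23555 against 3917, 0, 0, 0, 4.27 and 0. Igf1, a growth factor made by a subset of interneurons, was above 0 in 4 OCM-treated cells and in 1 glia-cultured cell. Penk, the enkephalin precursor, had no read in OCM-treated cells and reached 6450.5 in 1 glia-cultured cell. Cnr1, the cannabinoid receptor of another interneuron class, reached 26228 in 1 glia-cultured cell and at most 3.67 in OCM-treated cells. With 1 cell per library, patching more cells of a peptide class and a higher level per cell cannot be told apart.

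The machinery of GABA itself was a little lower. Of 17 measured identity genes 13 were lower, beside 64.0% of all genes, with a median of -0.66 beside -0.72 over all genes. Against the P-titled cells the list median was -0.86 and against the ech- or S-titled cells -0.80, where all genes gave -1.50 and 0.05. The 6 list genes read in all 11 cells had a median of -0.80, beside -0.17 over all such genes. Gad1 held 2422, 11930.5, 15540.2, 8585 and 12320.4 against 6011 to 19503 with a median of 17419. Gad2 held 5156, 3297, 8487, 9216 and 13024 against 6765 to 25558 with a median of 13339.8, and in both genes the ranges overlapped. Slc32a1, which loads GABA into vesicles, differed by -0.33. Among lineage factors, Dlx2 was read in 3 OCM-treated cells and in 0 glia-cultured cells, at least 372-fold higher by the bound on counting error. It met the filter of 3 cells through the OCM-treated cells alone, so its direction followed from the filter. Nr2f1 differed by -4.46. Lhx6 was not analysed here.

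GABA receptor genes were lower in OCM-treated cells across most subunits. Of 16 measured genes out of 19 listed, 14 were lower, beside 64.0% of all genes, and 10 more than 4-fold lower, beside 30.4%. Among the lower genes 2 had no read in any OCM-treated cell, so their direction followed from the filter. The median was -2.85, and it was -2.58 against the P-titled and -2.50 against the ech- or S-titled cells. It thus kept its sign and most of its size on both sides of the title split, where the all-gene median did not. No single gene separated the groups. The mean log2 level of the list was 3.49 to 5.46 in OCM-treated and 5.18 to 8.93 in glia-cultured cells, with 1 glia-cultured cell inside the OCM-treated range. In purified neurons without medium it was 1.13 to 4.51.

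The alpha subunits set the kinetics and drug sensitivity of the receptor. Gabra5, an extrasynaptic subunit typical of hippocampus, was read in 1 OCM-treated cell at 784 and in 5 glia-cultured cells up to 1765. Gabra2 held 13.9, 0, 1.22, 1438 and 893 against 166 to 5872 with a median of 2105. Among beta subunits Gabrb2 went against the rest: it was read in every OCM-treated cell at 362, 986, 1098, 1386 and 183 and in 4 glia-cultured cells, a difference of 3.09. Gabrb1, by contrast, had no read in OCM-treated cells and was at least 467-fold lower, a direction that followed from the filter.

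Gabrd, an extrasynaptic subunit, was read in 2 and 4 cells of the groups. Gphn encodes gephyrin, the anchor of inhibitory synapses. It held 43.0, 698, 117, 18.4 and 2561 in OCM-treated cells and 53.3 to 4966 with a median of 2903 in glia-cultured cells, so 4 OCM-treated cells lay below all but 1 glia-cultured cell. No purified neuron without medium had a Gphn read. The metabotropic subunits Gabbr1 and Gabbr2 differed by -2.26 and -1.10.

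Synaptic adhesion and scaffold genes were also lower, and here the list level separated the groups. Of 21 measured genes 15 were lower, beside 64.0% of all genes, and 13 were more than 4-fold lower, beside 30.4%. The median was -2.58 (-2.61 with the 2 genes at 0 in all OCM-treated cells set to their bound). The direction of those 2 genes followed from the filter. The mean log2 level was 3.68 to 4.56 in the 5 OCM-treated cells and 5.47 to 7.77 in the 6 glia-cultured cells. Purified neurons without medium, at 2.09 to 4.12, overlapped the OCM-treated cells. The median held against both title classes, at -2.41 and -2.19.

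Dlg2, a membrane-associated guanylate kinase that scaffolds receptors and potassium channels, was the list gene without overlap. It had 2 reads in all OCM-treated cells together (exact Poisson interval 0.242 to 7.22) and 7067 in the glia-cultured cells, where levels were 1089, 1178, 316, 141, 127 and 191. Purified neurons without medium held 0 to 41.0, with reads in 1 cell. Slitrk4, a postsynaptic adhesion protein, held 0, 19.3, 2.44, 0 and 0 in OCM-treated cells and 3924, 0, 1697, 1196, 2541 and 2483 in the glia-cultured cells, of which 1 was at 0. Lrrtm2, a neurexin partner, had no read in OCM-treated cells and was at least 1746-fold lower, with 2 glia-cultured cells also at 0. Its direction followed from the filter.

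Nlgn3 encodes a neuroligin, which binds neurexins across the synapse. It held 0, 4.07, 641, 0 and 112 in OCM-treated cells, with a glia-cultured median of 2658. Slitrk3, a partner at inhibitory synapses, went the other way. Its levels were 904, 217, 144, 832 and 949 against 0 to 389 with a median of 4.25, a difference of 5.66, with 2 glia-cultured cells inside the OCM-treated range. Nrxn2 differed by 0.41 and Dlg3 by -0.77.

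**Figure D3:**
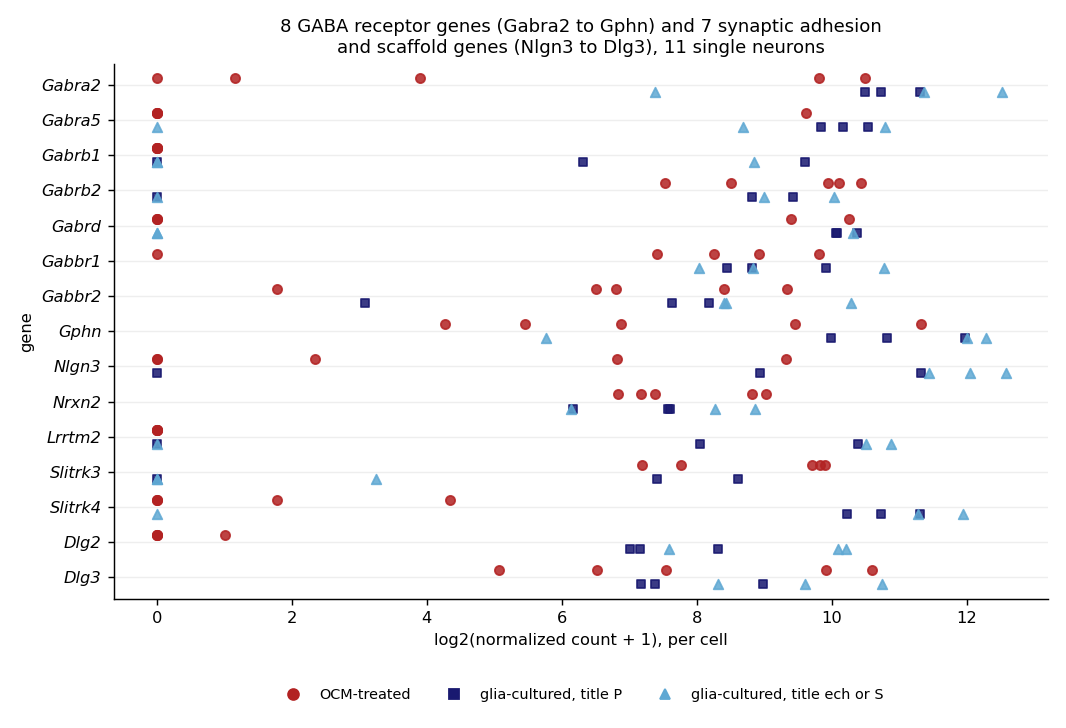
Rows are 8 GABA receptor genes and 7 synaptic adhesion and scaffold genes described in the text, the horizontal axis is log2(normalized count + 1), and each symbol is 1 neuron. Dlg2 is the row in which the colours separate, and Gabrb2 and Slitrk3 are rows with red circles above 0 in all 5 OCM-treated cells.

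Of 22 measured presynaptic genes 20 were lower, beside 64.0% of all genes, with a median of -0.90 beside -0.72 over all genes. Against the P-titled cells the list median was -0.98 and against the ech- or S-titled cells -1.31, where all genes gave -1.50 and 0.05. The 11 list genes read in all 11 cells had a median of -0.85, beside -0.17 over all such genes. Without overlap were 3 list genes, all lower, beside 0.517% of all genes. Those more than 4-fold lower numbered 6, a share no larger than the 30.4% of all genes. Snap25, a plasma membrane SNARE, held 15874, 15437, 14532, 21276 and 24993 in OCM-treated cells and 26926 to 44072 with a median of 31736 in glia-cultured cells. Its groups did not overlap, and its mean was 1.79 times higher with glia. Vamp1, a vesicle SNARE of fast inhibitory neurons, held 418, 204, 1.22, 0 and 0 against 578 to 1784 with a median of 1340.1. Sv2a, a vesicle glycoprotein, held 868, 1083, 0, 412 and 1174 against 1438 to 6101 with a median of 2085. Both were without overlap. Syp, synaptophysin, overlapped through 1 OCM-treated cell at 7455. Vamp2 and Rab3a, at -0.36 and -0.20, were near equal, and Bsn was higher by 2.25.

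Of 15 glutamate receptor genes measured 12 were lower, beside 64.0% of all genes, with a median of -1.38. Grin1, the obligatory NMDA subunit, held 1195, 1318, 3.06, 132 and 1611 against 495 to 6579.8 with a median of 2345. Gria1, an AMPA subunit, held 209, 705, 0, 97.2 and 1168 against 151 to 2837 with a median of 1417, so that both overlapped. Gria4, the AMPA subunit of fast interneurons, had a difference of 1.56, although 2172, 1379, 3275, 4475 and 4972 in OCM-treated cells lay inside the glia-cultured range of 0 to 6684, where 1 cell was at 0. Grik2, a kainate subunit, held 1.74, 363, 1016, 915 and 1119.8 in OCM-treated cells and, among glia-cultured cells, 1057 in 1 and 3.99 in another, a difference of 5.92. Neto1, its auxiliary protein, differed by -2.50.

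Ion channels were mixed. Of 28 potassium and HCN channel genes measured, 11 were higher and 17 lower, with a median of -0.62, close to that of all genes. Against the P-titled cells it was -1.34 and against the ech- or S-titled cells 0.47. Hcn2, a pacemaker channel subunit read in all 11 cells, was without overlap. It held 209, 137, 75.8, 17.1 and 62.0 in OCM-treated cells and 293 to 1232 with a median of 786 in glia-cultured cells, a mean 7.02 times higher with glia. Kcnk3, an acid-sensitive leak channel, was read in every OCM-treated cell at 488, 458, 994, 567 and 2063 and in 2 glia-cultured cells at 555 and 552, both titled P. Kcnj3, a G protein-gated rectifier, had no read in OCM-treated cells and was at least 612-fold lower, a direction that followed from the filter. Kcnab1, an auxiliary subunit, held 5.81, 394, 0, 0 and 941 against 596 to 1273 with a median of 902.

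Of 8 sodium channel genes 5 were lower, beside 64.0% of all genes. Scn1a, the channel of interneuron axons, held 0, 1292, 4.28, 312 and 2388 against 1157 to 2266 with a median of 1634, with 2 OCM-treated cells above the lowest glia-cultured cells. Scn2a was abundant in both groups and differed by 1.18. Of 16 genes of the axon initial segment and node 10 were lower, a share no larger than the 64.0% of all genes. Their median was -1.13, beside -0.72 over all genes. Nfasc differed by -3.41, Ank3 by -1.39 and Sptbn4 by 1.03, each read in at most 4 cells of a group. Cntn1, contactin, was read in all 11 cells and differed by -0.68. Of 11 calcium channel genes 5 were higher and 6 lower.

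Among 9 chloride transport and pump genes 8 were lower, beside 64.0% of all genes. Slc12a5, which encodes the chloride extruder KCC2 that makes GABA inhibitory in mature neurons, held 58.1, 57.5, 0, 0 and 139.6 against 69.5 to 2955 with a median of 319.5. The groups overlapped through 1 glia-cultured cell, the lowest. Slc8a1, a sodium-calcium exchanger, was the 1 gene that was higher: 4 OCM-treated cells held 549, 25.7, 339 and 115, and no glia-cultured cell or purified neuron without medium had a read. It met the filter of 3 cells through the OCM-treated cells alone, so its direction followed from the filter. By the bound on counting error it was at least 619-fold higher than in the glia-cultured cells.

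The genes whose cells did not overlap between the groups are described next. Of the 12 higher in OCM-treated cells, Cyp51 and Nsdhl are sterol enzymes. Cd320, the receptor for transcobalamin-bound vitamin B12, held 1099.5, 2027, 1005, 708 and 523 against 1 glia-cultured cell at 509.9 and 5 at 0. Ddah2, which breaks down methylarginines, held 1061, 304, 585, 249 and 521 against 1 at 73.6 and 5 at 0. Samm50, a sorting protein of the mitochondrial outer membrane, held 216, 675, 411, 1062 and 774 against 0 to 204 with a median of 0. In these 3 genes the glia-cultured cell above 0 at the top was the same P-titled cell, the one with the most genes above 0.

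Ptn encodes pleiotrophin, a secreted growth factor for neurites. It held 964, 2120.3, 2465, 1233 and 2274 in OCM-treated cells and 0 to 632 with a median of 212 in glia-cultured cells, a ratio of means of 7.33. Efnb3, a transmembrane ephrin, was low and even at 57.0, 43.8, 46.4, 59.1 and 46.5 against 0 to 37.0 with a median of 1.07. Another 4 genes were abundant and read in all 11 cells: Stmn3, a tubulin-binding stathmin, Cox5a, a cytochrome oxidase subunit, Rps6, a ribosomal protein, and Zbed5. Their ratios of means were small, 1.43 for Stmn3, 1.65 for Cox5a, 1.80 for Rps6 and 1.83 for Zbed5. Stmn3 held 37349.9, 36228, 34670.2, 32238 and 38841 against 18006 to 29974. The remaining feature carries the joint symbol Ang // Rnase4, with levels of 1.16, 1.02, 1.22, 90.6 and 3.10 in OCM-treated cells and no read in glia-cultured cells. It had 146 reads in all, of which cells other than the fourth held 2 each, and its direction followed from the filter.

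The 15 of 35 lower genes with the widest gaps between the groups included Dlg2, Cyp46a1, Hcn2 and Vamp1 from above. Madd, a guanine nucleotide exchange factor for the vesicle protein Rab3, held 1.16, 56.0, 0, 0 and 261 in OCM-treated cells and 1059 to 4572 with a median of 2156 in glia-cultured cells. Nedd4, a ubiquitin ligase, was read in every cell, at 98.8, 302, 804, 433 and 719.6 against 1481 to 5146 with a median of 3274. Wbp2, a transcriptional coactivator, was low but even, at 4.65, 18.8, 20.2, 19.04 and 18.6 against 93.5 to 361 with a median of 155. Purified neurons without medium had no Madd read, and held 0 to 2872 of Nedd4 and 16.8 to 170 of Wbp2.

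Pgbd5, a neuronal gene derived from a transposase, held 15.7, 0, 0, 162 and 0 against 683 to 3007 with a median of 849. Tmem132a, a membrane protein, held 488, 348, 229, 959 and 791 against 1716 to 7458 with a median of 2250.4. Among regulators of RNA and the cell cycle, Srrm2 and Scaf1 of the splicing machinery had ratios of 7.30 and 22.8 in favour of glia-cultured cells, and Cdk10 20.7. Rnf145, a ubiquitin ligase of the endoplasmic reticulum membrane, held 0, 37.1, 0, 28.2 and 0 against 55.4 to 1970.2 with a median of 559. Ankrd13c was read in 2 OCM-treated cells, at 309 and 282, and in all glia-cultured cells at 412 to 1300.2.

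**Figure D4:**
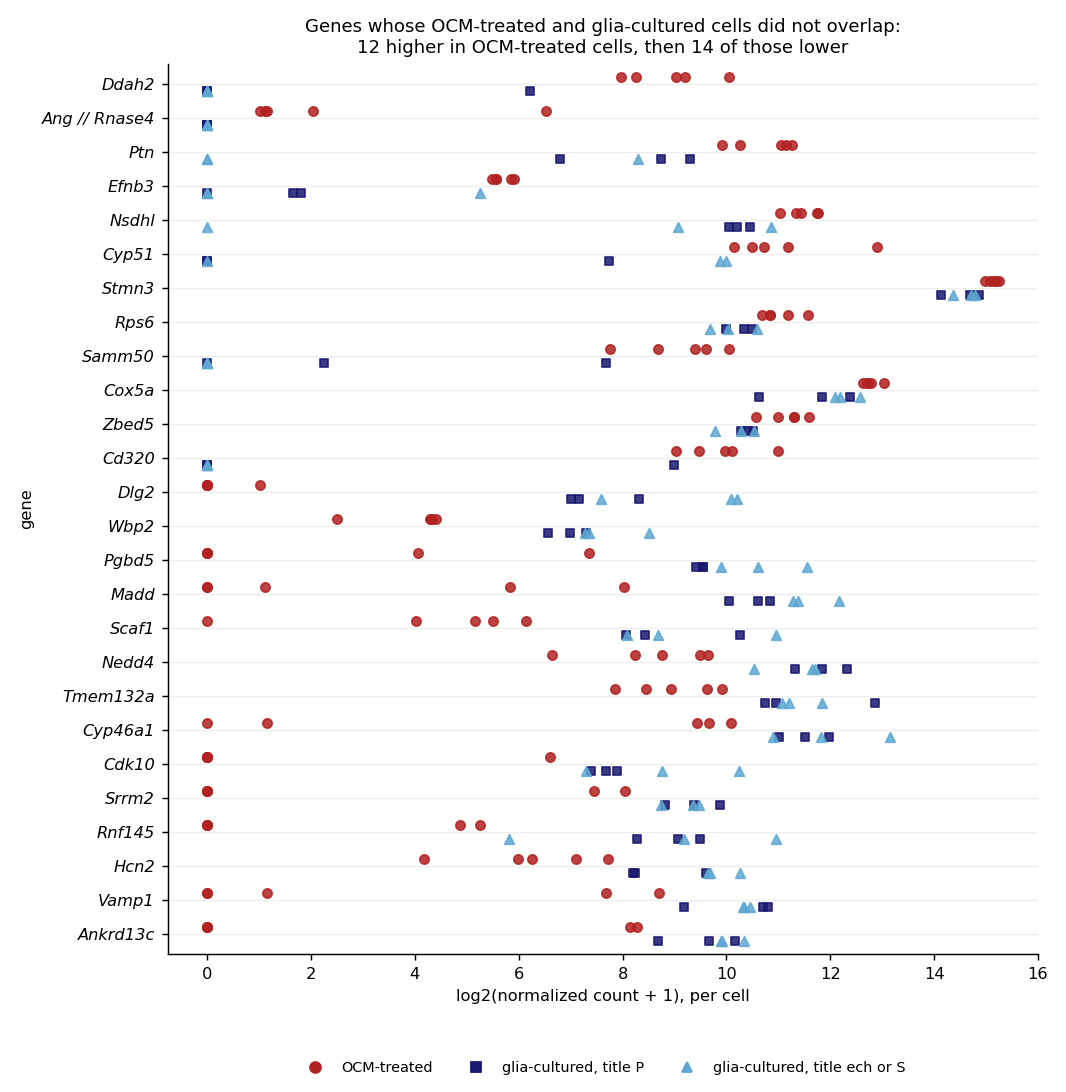
Rows are the 12 genes higher and 14 of the 35 genes lower in OCM-treated cells without overlap, ordered within each direction by the gap between the groups, and the horizontal axis is log2(normalized count + 1). The gap is wide for Ddah2 and Dlg2 and narrow for Cd320, Zbed5 and Cox5a.

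Ranking genes by the difference that is left after leaving out any 1 cell added genes whose groups overlap through single cells. Mfn2, a mitochondrial fusion protein, Pdk2, a kinase that restrains pyruvate dehydrogenase, Nfs1, a cysteine desulfurase, and Pde1b, a phosphodiesterase, had no read in any OCM-treated cell. They were read in 5 glia-cultured cells each, with the remaining cell at 0. By the bound on counting error they were at least 2639-fold, 1805-fold, 1816-fold and 1927-fold lower, which does not allow for failed capture. With no read in a whole group, their direction followed from the filter. Among purified neurons without medium, Pde1b had no read, Mfn2 and Pdk2 were read in 1 cell each and Nfs1 in 2. Nrsn1, a neuronal vesicle protein, was read in 1 OCM-treated cell at 1319 and in all glia-cultured cells at 1144 to 3227 with a median of 2356. Wdfy1, Nub1 and Mrpl50 had the same form, with 1 OCM-treated cell above 0. Among the higher genes, Tmem254 and Supt16h, a histone chaperone subunit, were read in all 5 OCM-treated cells at 676 to 3743 and 67.2 to 2896, and in 2 glia-cultured cells each. Tmem248 was read in 4 OCM-treated cells and in 1 glia-cultured cell.

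Restricting the genes to the 939 read in all 11 cells removed the zeros. Their median difference was -0.17, and 0.04 when cells were scaled to one total of reads. Among them 37 (3.94%) were more than 2-fold higher and 151 (16.1%) more than 2-fold lower in OCM-treated cells. Without overlap were 4 higher and 14 lower. Bex2, a brain-expressed adaptor, held 9482, 5239.8, 8005, 8893 and 7848 against 1189 to 5441 with a median of 3831, with 1 OCM-treated cell inside the glia-cultured range. Eif2s2, a translation initiation subunit, held 1135, 1393, 2933, 2671 and 1605 against 93.9 to 3080.1 with a median of 711. Tubb2b, a tubulin of growing neurites, differed by 2.10, and Ndufb7, of respiratory complex I, by 1.31. Pcdh9, a protocadherin, and Psip1, a chromatin reader, differed by 1.62 and 1.34.

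Some of these genes rest on cells with a few counts. Ckap4 held 2665, 392, 1393, 1249 and 1382 against 2.99 to 1281 with a median of 776, and 2 glia-cultured cells made its low end. Myl12a, a myosin light chain, held 14.5, 419, 829.8, 23.0 and 18.6 against 1.52, 2.99, 4.35, 3.08, 258 and 31.2. A feature shared by the symbols Cort, Kif1b and Pgd held 488, 2144, 458, 14817 and 9309 against 272 to 2915 with a median of 534. Since Cort encodes cortistatin, an interneuron peptide, while Kif1b encodes a motor protein and Pgd a pentose phosphate enzyme, the reads cannot be given to one of them. RGD1560394 differed by 1.42.

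On the lower side, Hnrnpu, a nuclear RNA-binding protein, held 2.32, 464, 2441, 1751 and 12.4 against 1828 to 5491 with a median of 2478. Itfg1 held 2232, 4549, 2.44, 4166 and 3.10 in OCM-treated cells against 351 to 13076. Bpnt1, a nucleotidase, held 1.16, 7.12, 1307, 975 and 1523 against 829 to 4124, and in both genes 2 of the 5 OCM-treated cells were near 0. Mapk8ip3, a kinase scaffold that rides on axonal motors, held 469, 12.7, 192, 1212 and 35.7 against 353 to 2435 with a median of 1566. Tcea2, a transcription elongation factor, differed by -3.32.

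Ribosomal protein genes were higher for the most part, with small differences. Of 70 measured 51 were higher and 8 more than 4-fold higher, beside 11% of all genes, with a median of 0.55. Rps6 held 1837, 2323, 1819.7, 1643 and 3039.8 against 823 to 1528 with a median of 1162, without overlap. Rpl39 and Rpl27a, of the large subunit, differed by 4.27 and 3.85. Such genes have many processed copies in the genome, among which reads may be split, so single members are uncertain.

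Respiratory chain genes differed little. Of 47 measured, 45 were read in all 11 cells, 30 were higher, and the median was 0.22. Cox5a was the 1 without overlap, at 6733, 8431, 7015, 6720.1 and 6332 against 1574 to 6122 with a median of 4495. Within ATP synthase 9 of 10 genes were higher, by a median of 0.30. Glycolytic genes were even too, with a median of -0.21 over 17. Gapdh differed by 0.17 and Ldhb by 0.17, and Eno2, the neuronal enolase, by -1.27. Of 16 genes of mitochondrial dynamics 7 were higher, with Samm50 and Mfn2 at the ends.

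Neurofilament, tubulin and microtubule genes were higher in 14 of 16 cases, with a median of 0.51. That median was 0.88 against the P-titled and 0.04 against the ech- or S-titled cells, where next to nothing of it was left. Motor genes were lower in 7 of 10, near the 64.0% of all genes. Tuba1a held 79618, 66990.3, 70776, 45200.5 and 72122 against 25716 to 53524 with a median of 34282, and Map1b differed by 0.53. Of 13 pan-neuronal genes 9 were lower, near the 64.0% of all genes, with a median of -0.94. Sncb, beta-synuclein, was the 1 without overlap, at 8074, 8094, 7787, 10435 and 7697 against 10736 to 16552 with a median of 13073. Thy1, a surface glycoprotein, differed by -1.23. Genes of the unfolded protein and stress response had a median of -0.01 over 22, with Hspa5 at 0.40 and Hspa8 at -0.25.

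Because the purified cultures had received antimitotic agents, genes of the p53 response and of proliferation were examined. Of 16 p53-response genes 6 were higher and 10 lower, with a median of -0.45, -2.24 against the P-titled and 0.81 against the ech- or S-titled cells. Cdkn1a, the p53-induced cell cycle inhibitor, held 0, 0, 3.67, 0 and 0 against 0.303, 0, 0, 242, 334 and 0. Mdm2 was read in 1 and 2 cells. Ccng1, a p53-induced cyclin, held 533, 1960.1, 1706, 0 and 1429.9 against 0 to 1315 with a median of 275. Of 21 proliferation genes with values 6 were measured and 8 were at 0 in all 11 cells. Of the 6, 5 were lower, beside 64.0% of all genes, 3 of them more than 4-fold, beside 30.4%. Among the 6, 2 were at 0 in a whole group, so their direction followed from the filter. The median was -1.83, at -0.74 against the P-titled and -1.82 against the ech- or S-titled cells. Ccne1, cyclin E, was the 1 higher gene. It held 1025, 130.2, 3049.7, 643 and 2430.3 against 0 to 2170.3 with a median of 0, and Ccnd1 had no read in OCM-treated cells. Of 11 trophic factor receptors 8 were lower, beside 64.0% of all genes. Ntrk2, the BDNF receptor, held 99.96, 1175, 1336, 694 and 4319 against 0 to 3314 with a median of 1503. Of 6 neuropeptide and chemokine receptor and ligand genes measured out of 22 listed, 2 were higher, Ackr3 and Mif.

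Markers of other cells were uneven in both groups. Of 13 oligodendrocyte lineage genes 3 were measured. Mbp, myelin basic protein, was at 3.05 in 1 OCM-treated cell and at 959 and 609 in 2 glia-cultured cells, both titled P. The summed level of that list was 0 to 9.16 in OCM-treated and 0 to 1563 in glia-cultured cells, and the median difference of the 3 genes was -5.13 against the P-titled and 0.40 against the ech- or S-titled cells. Mog, Mag, Mobp, Sox10, Pdgfra, Cspg4 and Cldn11 were at 0 throughout. The 2 glia-cultured cells with Mbp were also those with the highest levels of the cholesterol synthesis list among glia-cultured cells, and the part of glial RNA in those levels was not tested.

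Of 11 astrocyte genes with values 8 were measured, 7 of them lower, beside 64.0% of all genes. Their median of -1.28 turned in sign with the title split, at -2.54 against the P-titled and 0.35 against the ech- or S-titled cells. All 8 had reads in 1 OCM-treated cell, the second, and in 1 P-titled glia-cultured cell, and the mean log2 levels of the list in these cells were 6.66 and 8.01, the highest of their groups. The other cells had reads for 1 to 3 of the 8 in the OCM-treated and 2 to 6 in the glia-cultured group. The part of these markers in the other results was not tested. Their summed level was 5148 to 14157 in OCM-treated and 1228 to 16916 in glia-cultured cells, most of it Clu, which neurons also express. Gfap was at 12.3 in 1 glia-cultured cell and at 0 elsewhere, and Slc1a2 was at 0 in all 11. Slc1a3 reached 475 among the P-titled cells and was at 0 in those titled ech or S. Microglia and vascular genes were above 0 in at most 2 cells each, at no more than 109 counts. Glutamatergic markers were low in both groups, with Camk2a at 319.6 in 1 P-titled cell and 14.2 in 1 OCM-treated cell.

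**Figure D5:**
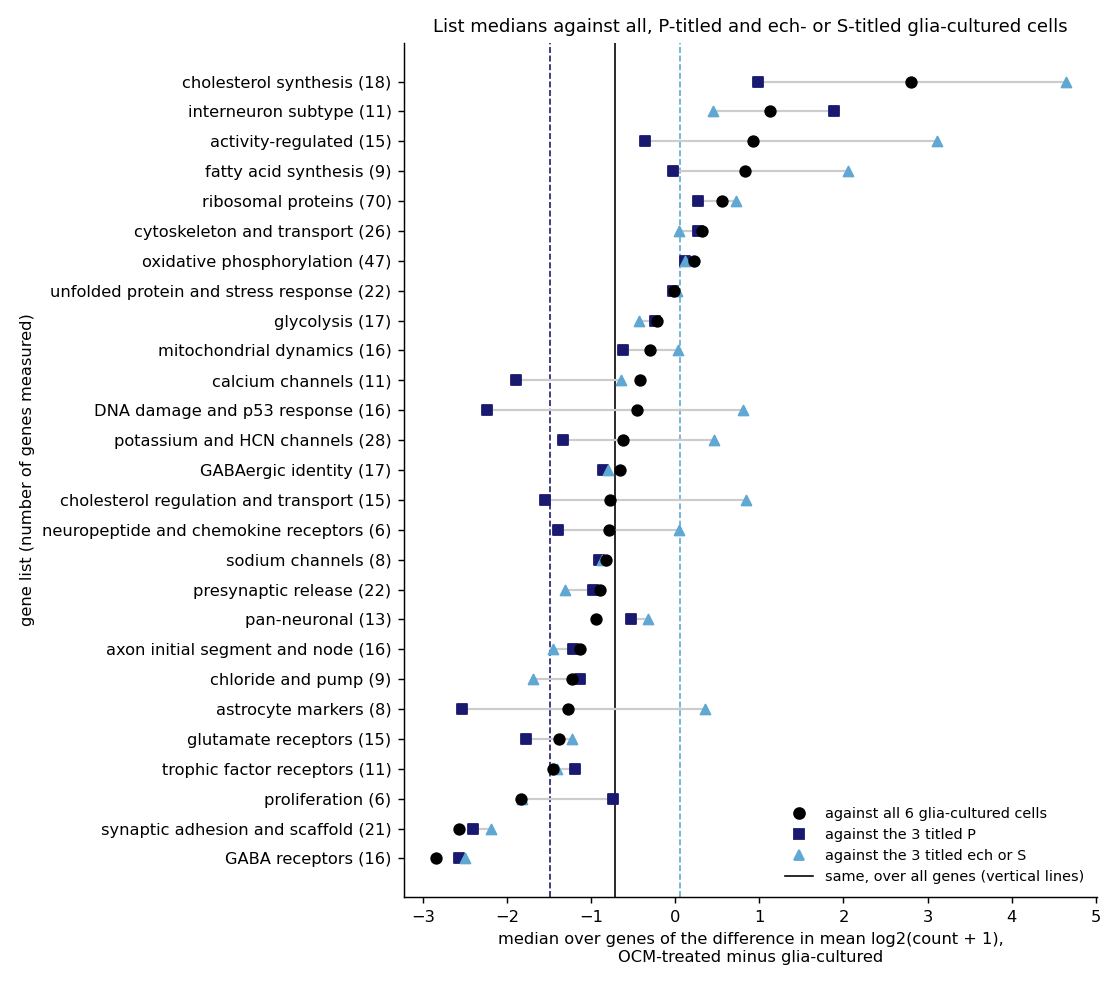
For each list, given with its number of measured genes, the horizontal axis is the median log2 difference, OCM-treated minus glia-cultured, against all 6 glia-cultured cells (black), the 3 titled P (dark blue) and the 3 titled ech or S (light blue); vertical lines give the same medians over all genes. Cholesterol synthesis lies to the right and GABA receptors and synaptic adhesion and scaffold to the left of all 3 lines, whereas the p53-response and potassium channel lists lie on both sides of 0 depending on the cells used.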

How the data were processed

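Single-cell RNA-seq of patched neurons was deposited as one table of signal values per gene, which are read counts divided by size factors according to the values themselves. Per the submitters' processing notes, STAR 2.4.0, FastQC, Picard, SAMtools and DESeq2 were used with rn6. The counter, annotation and strand option (not given in the sources used here) are unknown, so overlapping and antisense genes cannot be told apart. Whole reads were recovered from the value of 1 read in each cell, and 100% of values came out whole within 0.05. Recovered reads served depth, thinning and Poisson intervals (95%).

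Only rows with a symbol were compared. Differences are of means of log2(deposited signal + 1), over genes above 0 in at least 3 of the 11 cells. A gene at 0 in all cells of one group met that filter through the other group alone, so its direction followed from the filter. Since no label gives the animal or culture of a cell, each group counts as 1 sample and neither a count model nor any other test was run. Genes named in the text are the 4 marker genes, members of gene lists, up to 15 genes per direction without overlap by gap, and, per direction, the 12 (10 among genes read in all 11 cells) largest differences left after leaving out any 1 cell. The 12 needed a mean of at least 50 and 4 or more cells with reads in the higher group. Members and lists were chosen with earlier results of these data known. A fold against a group at 0 uses a floor of 3 reads over that group, below the 3.69 that the exact Poisson interval reaches. It stands for counting error and does not cover failed capture. Alternatives changed the pseudocount, filter, scaling, summary and cells. Lists were counted whole, and some of their genes, like some that the naming rule gives, are not reported here singly. The scripts were checked on simulated data.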

Additional observations from a re-analysis of the deposited data

Results flagged for a closer look

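Among 26 groups of values examined for cells far from their group, 3 held one. The chance rate of about 1 in 20 does not hold for groups with most cells tied at 0. Ackr3 and Egr1 in glia-cultured cells were such groups. For Ackr3 the OCM-treated cell at a log2 value of 0 lay apart from the other 4, whose normalized counts were 2483, 780.4, 2295 and 1898. In glia-cultured cells the highest log2 value of Ackr3 was 1.05, which stands for 2 reads, with the other 5 cells at 0. For Egr1 the highest glia-cultured cell, at a log2 value of 10.3, lay apart from the other 5, of which 4 were at 0 and 1 held a normalized count of 7.47.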

How the results depend on the processing

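Of the recomputed values, 341 stayed within the spread between cells or within 1.5 times a count, 43 moved beyond it and 7 changed sign. The split of glia-cultured cells by title letters moved most. The median over all genes was 0.054 against the ech- or S-titled cells, and against the single S-titled cell, an alternative chosen after seeing the data, 0.39. Against that single cell cholesterol synthesis was 5.74, activity-regulated genes 3.81, adhesion and scaffold genes -0.97, ribosomal proteins -0.19, genes read in all 11 cells -0.33 and Cyp51 1.21. Activity-regulated genes were -0.36 against the P-titled and 3.11 against the ech- or S-titled cells. The interneuron list was -0.30 with no filter, and genes read in all 11 cells were 0.036 with one total and 0.012 after thinning. Adhesion and scaffold genes were -1.70 with a pseudocount of 10, -3.46 with 0.1, -1.42 as a ratio of means and -3.16 to -1.89 as each cell was left out. GABA receptors were -1.62 and Egr1 2.72 as ratios of means. Genes more than 4-fold higher numbered 372 with a pseudocount of 10, 431 with reads in at least 6 cells, 454 by ratio of means, 487 against P-titled, 1685 against ech- or S-titled and 2305 against the S-titled cell. Genes more than 4-fold lower numbered 1221, 1148 and 1289 under the first 3 of these. Genes higher without overlap numbered 22 with one total, 6 with one upper quartile, 32, 64 and 397 against the P-, ech- or S- and S-titled cells, and 12 to 25 as each cell was left out. Genes lower without overlap numbered 352, 184 and 1441 against those cells and 48 to 70. Fewer cells ease that rule by construction, and the cause of the other moves was not tested. No paired analysis was possible because the replicate numbers are names in accession order and no test was made. Depth limits genes of a few reads, such as Ackr3 in glia-cultured and Dlg2 in OCM-treated cells, and 1 cell a library leaves absence and failed capture not told apart.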

Other observations

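The other genes lower in all 5 OCM-treated cells than in all 6 glia-cultured cells included the following, chosen after their values were seen. Dagla, which makes the endocannabinoid that travels back across synapses, held 228, 102, 329, 0 and 3.10 against 421 to 2356 with a median of 1720.1. Vegfa, a growth factor for vessels and neurons, held 1.16, 5.09, 0, 611 and 253 against 688 to 1631 with a median of 1133. Ppp3r1, the regulatory subunit of calcineurin, held 583, 2253, 2305, 2692 and 476 against 3055 to 9963 with a median of 5319, and was read in every cell but at lower levels in OCM-treated cells. Cdk5r1, the neuronal activator of the kinase Cdk5, held 183, 142, 257, 198 and 146 against 325 to 1759 with a median of 496.

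Among membrane traffic genes, Rph3a, rabphilin, held 1.16, 11.2, 39.1, 0 and 88.4 against 88.6 to 1531 with a median of 344. Napa, the SNARE disassembly adaptor, held 865, 971, 889.7, 1378 and 464 against 1412 to 3337 with a median of 2013. Psap, the lysosomal precursor prosaposin, held 1230.3, 878, 1016, 1515 and 2227 against 2736 to 5564 with a median of 3929.9. Bcat1, a branched-chain aminotransferase, held 16309.7, 10418, 21381, 23297 and 18797 against 24378 to 35419 with a median of 30036, a mean 1.66 times higher with glia. Several of these gaps were narrow, as for Rph3a, where the nearest cells were at 88.4 and 88.6.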
